A study of Mus musculus with 168 samples.

Results

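Lumbar spinal motor neurons of mice with spinal muscular atrophy (SMA) were compared with those of littermate controls at postnatal day 5. The comparison comprised 10 samples, 5 SMA and 5 control, of the 168 libraries in the study, and it was made across all genes. The SMA mice carried the delta7 genotype, Smn-/-/SMN2+/+/SMN∆7+/+, and the controls were Smn+/+/SMN2+/+/SMN∆7+/+. Both genotypes therefore carried the human SMN2 gene and the human SMN∆7 transgene, and they differed in the mouse gene. No further treatment is named in the labels. Neurons were cut by laser from frozen, stained sections of lumbar cord, about 150 cells to a tube, and each tube became a full-length cDNA library by Smart-seq2 and Tn5 tagmentation. Each mouse gave 1 lumbar library at this age. The study sampled 6 neuronal populations at 3 ages. Lumbar neurons at days 2 and 10, and ocular and facial motor neurons at day 5, are used here for comparison only, and all of these groups had the same 2 genotypes.

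SMA is a motor neuron disease of infancy in which the protein SMN (survival motor neuron) is scarce. SMN works in a complex with Gemin proteins that loads Sm proteins onto small nuclear RNAs, which makes the small nuclear ribonucleoproteins (snRNPs) of the spliceosome. Spinal motor neurons are among the cells most affected, and the transcription factor p53, which is held low by Mdm2 and drives genes of cell cycle arrest, DNA repair and cell death, is known to accumulate in them in this mouse model.

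The libraries held 4.08 to 11.1 M reads in controls and 5.55 to 7.89 M in SMA mice (M as in Mb), and 15639 to 18106 genes were above 0. Depth and detected genes did not separate the genotypes (two-sided exact permutation tests, p = 0.897 and p = 1; adjusted p = 1 for both over 5 measures). The third principal component, with 13.4% of the variance, gave the smallest p (two-sided exact permutation p = 0.0159) and did not pass after adjustment (adjusted p = 0.0794), where the smallest p this design can give is 0.00794. The first and second components set SMA mice 31 and 77 apart from the other mice (scores of −87.8 and −86.4), and neither component differed by genotype (exact permutation p = 0.365 and p = 0.897; adjusted p = 0.913 and p = 1). Per the labels, reads of an earlier deposit were added to all 5 control libraries and to none of the SMA libraries at this age, so this step and the genotype cannot be told apart at day 5. Each genotype had 1 male of 5, read from Xist and Y-linked genes.

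The captured cells had the markers of lumbar motor neurons in both genotypes. Chat, the enzyme that makes acetylcholine, had 18.2 to 33.9 RPKM (reads scaled to the length of the gene and the size of the library) in controls and 28.2 to 38.0 in SMA mice. The summed level of 14 motor neuron genes was 4583 to 5485 RPKM in controls and 4091 to 4865 in SMA mice. The summed level of 11 lumbar Hox genes, which give spinal neurons their position along the cord, was 223.2 to 276.2 and 208.7 to 238.5 RPKM. Each of these 25 genes was above 0 in at least 1 mouse of both groups.

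At day 5 few genes separated the genotypes past the threshold. Of 16382 genes tested, 8 (0.0488%) passed an adjusted p of 0.05, 6 of them higher in SMA (0.0366%) and 2 lower (0.0122%). The test was limma on log2(RPKM + 1), fitted over 30 mice of the 6 lumbar groups of genotype and age, and fold changes are log2 values on that scale, SMA minus control. The genes that rose were Cdkn1a, Dcxr, Crip2, Tap1, Snrpa1 and Ccng1, and those that fell were Smn1 and Nutf2. At an unadjusted p of 0.05 there were 1333 genes (8.14%), 801 higher (4.89%) and 532 lower (3.25%). The 5 SMA and 5 control values did not overlap in 0.769% of genes, with SMA higher, and in a further 0.47% (77 genes), with SMA lower. Over all genes tested the log2 fold change had a median of 0.03. The count of 8 changed with the mice included. It was 6 without SMA mouse 77 or without control mouse 34, 13 without control mouse 29 or 71, 15 without SMA mouse 61, 16 without SMA mouse 76 and 18 without SMA mouse 46. Without SMA mice 31 and 77 together it was 11, and these included 6 of the 8.

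**Figure D1:**
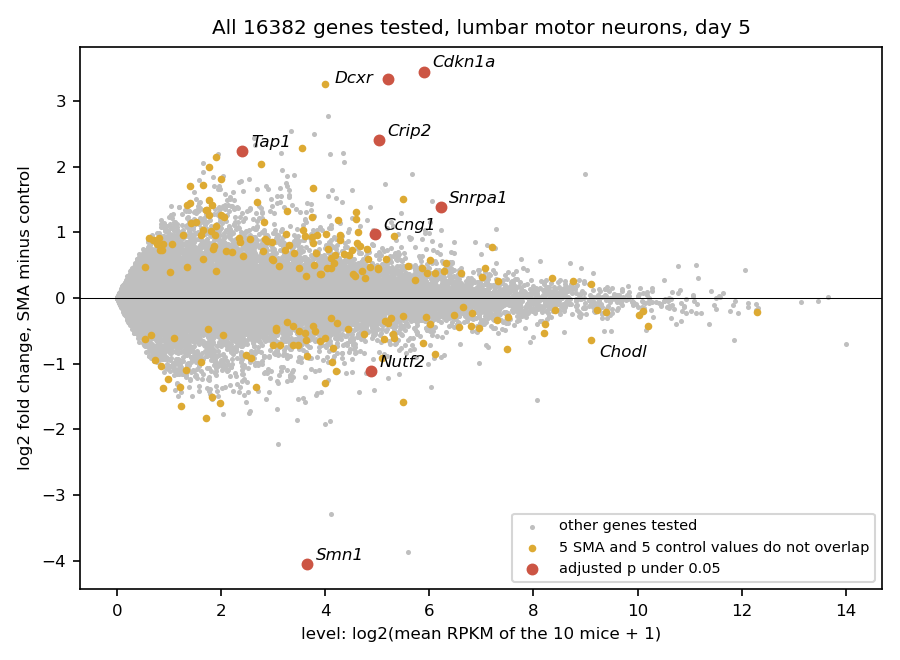
Each point is 1 of the 16382 genes tested, with its level on the x axis (log2 of the mean RPKM of the 10 mice + 1) and the log2 fold change, SMA minus control, on the y axis. Red points are the 8 genes past the threshold, 6 above 0 and 2 below, and yellow points are the other genes whose SMA and control values did not overlap, Chodl among them.

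Smn1, the gene removed in SMA mice, checked the genotype labels. It lies on chromosome 13 from 100124852 to 100137690 on the plus strand of GRCm38, as do all positions given here. Controls had 43.8, 15.2, 19.6, 17.5 and 18.2 RPKM in mice 29, 30, 34, 71 and 75. SMA mice had 1.22, 0, 0, 0.86 and 0 RPKM in mice 31, 46, 61, 76 and 77. Every SMA mouse lay below every control, and the 3 SMA mice listed at 0 had no more than the 0.147 to 0.208 RPKM that 3 reads would give. Smn1 fell by 4.06 on the log2 scale (SE 0.293, limma adjusted p = 4.31e-10), and the ratio of the group means was 55.0. With a pseudocount of 0.1 or 5 in place of 1 the log2 fold change was −6.33 or −2.29, past the threshold with both. The row of the human SMN2 gene had 150.1 ± 39.5 RPKM in controls and 129.8 ± 38.8 in SMA mice (SD, n = 5 each), a log2 difference of −0.22 that did not pass the test (adjusted p = 0.883). Mouse mm10 and human hg19 are both named in the submitters' processing notes, but how reads shared by Smn1 and the human genes were assigned is not given in the sources used here.

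Of the 8 genes past the threshold, 4 were in the lists of p53 target genes, and all 4 rose. The 3 lists held 15, 14 and 15 of the 16382 genes tested. They were drawn up with p53 targets already known to be high in this series, so the overlap is no independent evidence. The 4 genes were Cdkn1a, Ccng1, Dcxr and Tap1. Cdkn1a encodes p21, an inhibitor of cyclin-dependent kinases and a classical p53 target. It lies on chromosome 17 from 29090976 to 29100727 on the plus strand. Controls had 8.89, 10.2, 14.1, 3.88 and 7.18 RPKM, in the order of mice given above, and SMA mice had 72.7, 167.1, 129.3, 52.2 and 119.1. The lowest SMA mouse was well above the highest control. Cdkn1a rose by 3.45 on the log2 scale (SE 0.382, adjusted p = 5.25e-06), and the ratio of means was 12.2. The call held without each mouse in turn and under every other setting tried.

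Ccng1, which encodes cyclin G1, lies on chromosome 11 from 40748552 to 40755311 on the minus strand. Controls had 26.3, 15.7, 19.4, 17.1 and 21.3 RPKM and SMA mice 32.96, 46.3, 40.5, 30.7 and 50.97. The groups did not overlap, and the ratio of means was 2.02 (log2 fold change 0.97, SE 0.178, adjusted p = 0.0134). The call was lost without SMA mouse 77 (adjusted p = 0.0875), control mouse 30 (0.0689) or control mouse 34 (0.0535), without SMA mice 31 and 77 together (0.0867), and with only the day-5 groups fitted (0.203).

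The region before the start of these genes was searched for the p53 consensus element, 2 copies of its half-site of 10 bases with up to 3 bases between them, in windows of 250 bases before to 50 bases after each start site in RefSeq on GRCm38. The element reads as itself on the opposite strand, so both strands were covered. The conserved C and G of each half-site had to be kept. With up to 1 mismatch at the other bases, a limit set after the matches were seen, the element was found in 72 of 32851 windows (0.219%). These windows belong to 68 of 27025 genes (0.252%). Of the 8 genes past the threshold at day 5 the element was found for Cdkn1a and Ccng1, and of 38 genes of the p53 lists with a window for these and Gtse1. Each of the 3 had 1 mismatch and no spacer. The stretches of 120 bases are shown because Cdkn1a and Ccng1 are the p53 targets past the threshold that hold the element, and Gtse1, which is not past it, is the remaining list member with a match. Capitals mark the element, and each stretch reads 5′ to 3′ on the strand of its gene. The Cdkn1a stretch is chr17:29090878-29090997 (plus), the Ccng1 stretch chr11:40755412-40755531 (minus) and the Gtse1 stretch chr15:85859856-85859975 (plus).
Cdkn1a: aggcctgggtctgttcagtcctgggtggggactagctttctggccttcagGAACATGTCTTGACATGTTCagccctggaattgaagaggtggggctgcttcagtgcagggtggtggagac
Ccng1: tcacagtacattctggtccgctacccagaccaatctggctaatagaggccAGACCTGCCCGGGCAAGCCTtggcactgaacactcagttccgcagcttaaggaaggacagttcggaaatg
Gtse1: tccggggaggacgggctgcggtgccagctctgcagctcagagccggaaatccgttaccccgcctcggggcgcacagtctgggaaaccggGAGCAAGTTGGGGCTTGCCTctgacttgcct
A match is a description of these letters, and no binding was measured.

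Dcxr encodes dicarbonyl and L-xylulose reductase, an enzyme of sugar metabolism, and lies on chromosome 11 from 120725399 to 120727281 on the minus strand. Controls had 3.62, 6.41, 6.98, 3.47 and 6.20 RPKM and SMA mice 24.7, 105.4, 68.5, 70.0 and 66.2. SMA mouse 31 was the lowest of its group and still above every control. Dcxr rose by 3.33 on the log2 scale (SE 0.475, adjusted p = 0.000345), with a ratio of means of 12.5. The call held under every setting tried, and the log2 fold change was 2.70 with a pseudocount of 5.

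Tap1 encodes a subunit of the transporter that carries peptides to class I histocompatibility molecules and lies on chromosome 17 from 34187553 to 34197225 on the plus strand. Controls had 0.293, 0.791, 1.13, 0.989 and 0.716 RPKM and SMA mice 6.79, 7.20, 5.62, 4.99 and 14.7. All SMA mice were higher than all controls, and SMA mouse 77 was highest. The log2 fold change was 2.24 (SE 0.395, adjusted p = 0.0104). The call was lost without SMA mouse 77 (adjusted p = 0.0651), without SMA mice 31 and 77 together (0.143) and with a pseudocount of 0.1 (0.143), and the filter of a mean of at least 5 RPKM left the gene out. The log2 fold change was 3.16 with a pseudocount of 0.1 and 1.11 with 5. Exons of Tap1 overlap those of Psmb9 in GENCODE M21, and the library type does not mark strand. Psmb9, an immunoproteasome subunit, had 2.53 ± 2.80 RPKM in controls and 2.60 ± 3.24 in SMA mice (log2 fold change −0.02, adjusted p = 0.999). Tap2, which encodes the partner subunit, had 0.106 ± 0.156 and 0.121 ± 0.128 RPKM (0.02, adjusted p = 0.996), and B2m, the light chain of class I molecules, had 69.7 ± 17.3 and 91.6 ± 19.0 (0.40, adjusted p = 0.739). Psmb9, Tap2 and B2m were looked up after the Tap1 values were seen.

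**Figure D2:**
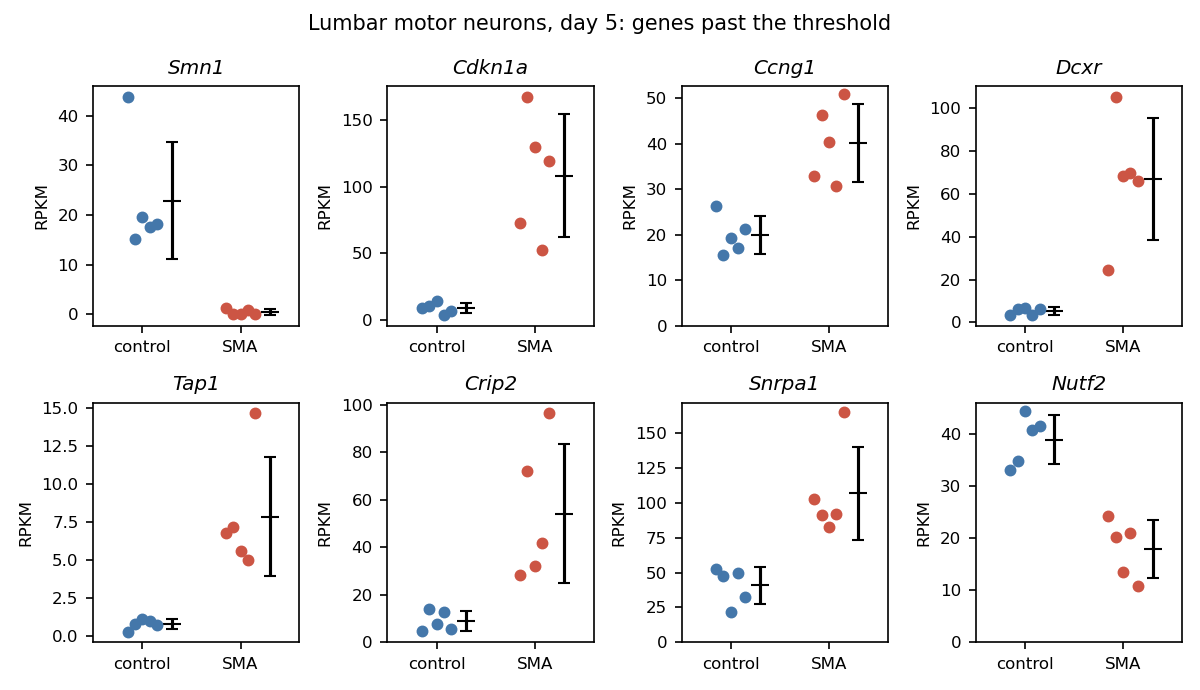
Each panel shows RPKM of 1 gene past the threshold at day 5 in the 5 control and 5 SMA mice (points), with the mean and SD beside them. SMA and control values do not overlap in any of the 8 panels; Smn1 and Nutf2 were lower in SMA and the other 6 genes higher.

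The p53 lists are described here whole, with the 4 called genes included. Of 16 genes in each of 3 lists, 15, 14 and 15 passed the filter on low values. In the cell cycle list 2 of 15 genes rose (Cdkn1a and Ccng1) and 0 fell, 12 had a positive log2 fold change, and the median was 0.58 against 0.03 for all genes. Of 14 cell death genes 0 passed the test, while 13 were positive, 8 had an unadjusted p under 0.05 and the median was 0.81. In the list of repair, metabolism and other targets 2 of 15 rose (Dcxr and Tap1), 12 were positive and the median was 0.48. These lists were drawn up with p53 targets already known to be high in this series, so they are no independent evidence of the direction. Over all genes tested 53.2% were positive and 8.14% had an unadjusted p under 0.05, 4.89% higher and 3.25% lower.

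Lrdd, now called Pidd1, encodes a death domain protein. Its values were 1.55, 0.435, 0.288, 0.0384 and 1.02 RPKM in controls and 3.36, 4.36, 5.25, 1.90 and 11.7 in SMA mice. The groups did not overlap, with a log2 fold change of 1.82 (SE 0.405, adjusted p = 0.0988). It passed the threshold without SMA mouse 76 (adjusted p = 0.0347). Fas, a death receptor, had 0, 4.86, 0, 0.482 and 0 RPKM in controls and 3.46, 9.82, 4.97, 5.66 and 1.82 in SMA mice. Control mouse 30 alone lay within the SMA range, and without it the adjusted p was 0.0466 in place of 0.203. Plk2, a kinase of the cell cycle list, had 6.29 ± 1.82 RPKM in controls and 16.3 ± 6.80 in SMA mice (log2 fold change 1.19, adjusted p = 0.124, and 0.0347 without SMA mouse 76). Lrdd, Fas and Plk2 passed the threshold in no other setting tried. Bax, a pore-forming protein of mitochondrial cell death, had 69.9 ± 15.3 and 95.4 ± 25.4 RPKM (0.43, adjusted p = 0.719).

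Of 10 genes that encode p53 or act on it, 0 passed the test. Of these, 8 were positive (53.2% of all genes) and 2 had an unadjusted p under 0.05 (8.14% of all genes). Trp53, the gene of p53 itself, had 5.36, 7.73, 13.0, 7.13 and 6.95 RPKM in controls and 12.7, 13.2, 15.9, 9.99 and 14.9 in SMA mice. Control mouse 34 lay among the SMA mice, and the log2 fold change was 0.70 (SE 0.263, adjusted p = 0.444). Mdm2, which encodes the ubiquitin ligase that degrades p53 and is itself a p53 target, had 12.7 ± 2.48 RPKM in controls and 17.1 ± 8.23 in SMA mice (0.31, adjusted p = 0.781). The deubiquitinase gene Usp7 had 19.3 ± 5.27 and 26.1 ± 5.55 RPKM (0.43, adjusted p = 0.516).

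**Figure D3:**
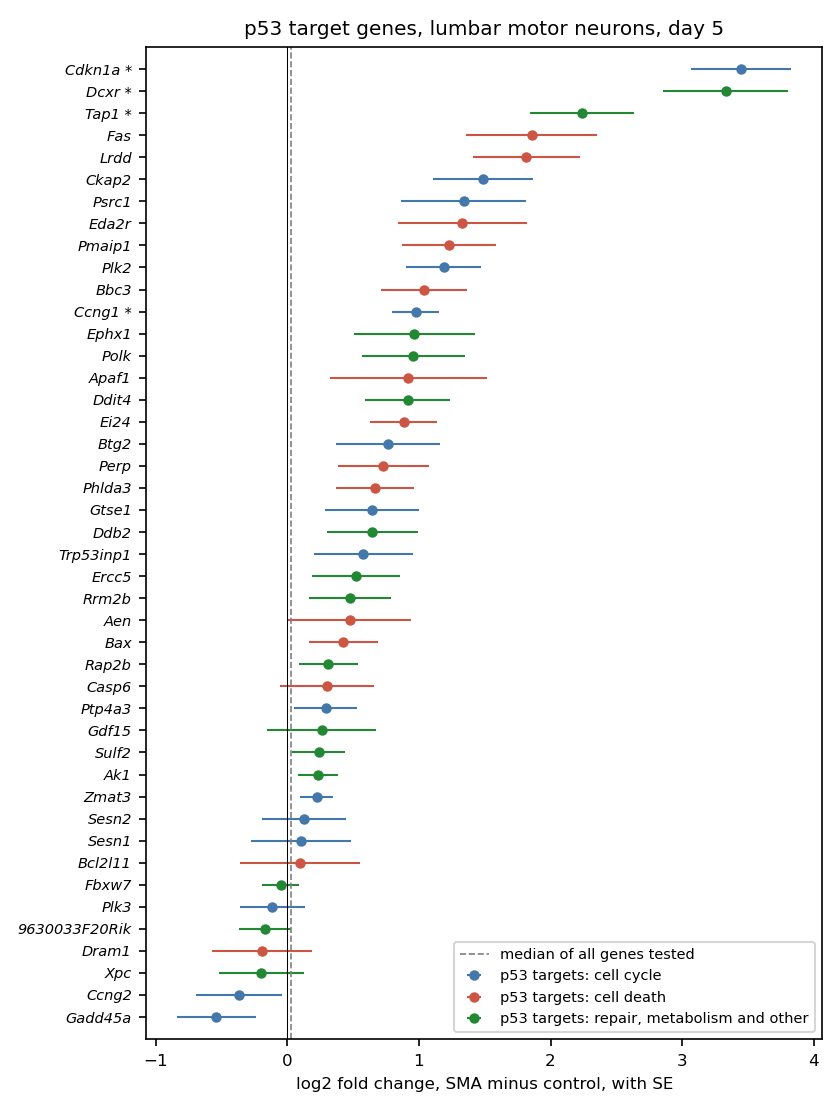
The log2 fold change (x axis, SMA minus control, bars are SE) is shown for each p53 target tested, ordered by size and coloured by list. Stars mark the 4 genes past the threshold, and the dashed line is the median of all genes, 0.03.

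Among spliceosome genes Snrpa1 was the single gene past the threshold. It encodes U2 A′, a protein of the U2 snRNP, and lies on chromosome 7 from 66059003 to 66074587 on the plus strand. Controls had 52.4, 47.5, 21.7, 49.7 and 32.6 RPKM and SMA mice 102.8, 91.5, 82.5, 92.2 and 164.6. All SMA mice were above all controls, and SMA mouse 77 was highest. Snrpa1 rose by 1.39 on the log2 scale (SE 0.193, adjusted p = 0.000327), with a ratio of means of 2.62. The call was lost with only the day-5 groups fitted (adjusted p = 0.155). Exons of Snrpa1 and Gm45213 overlap in GENCODE M21.

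Of 12 genes for U2 snRNP proteins 1 rose (Snrpa1) and 0 fell, 11 were positive, 5 had an unadjusted p under 0.05 and the median was 0.28. The shares over all genes tested were 53.2% positive and 8.14% at an unadjusted p under 0.05 (4.89% higher, 3.25% lower). Sf3b1, which contacts the branch site, had 30.2 ± 5.13 RPKM in controls and 40.6 ± 5.49 in SMA mice (0.42, adjusted p = 0.359). Of 10 Sm core and U7 genes 0 passed the test and 4 were positive (median −0.02). Snrpe, which encodes the Sm protein SmE, had 200.5 to 259.1 RPKM in controls and 82.8 to 186.5 in SMA mice. The groups did not overlap, but the log2 difference of −0.78 had an adjusted p of 0.356. In the other 3 lists of this machinery, the Smn1 row was the only call. Of 12 SMN complex genes 1 fell (Smn1), and Gemin8, which ties Gemin proteins into the complex, had 0.988 ± 0.558 and 0.304 ± 0.328 RPKM (−0.59, adjusted p = 0.634). Of 20 genes for U1, U4, U5 and U6 proteins 0 passed, 3 had an unadjusted p under 0.05, all higher, and 16 were positive (median 0.18). Lsm4, a protein of the U6 ring, had 49.6 ± 8.98 and 67.0 ± 7.79 RPKM (0.43, adjusted p = 0.323). Of 9 minor spliceosome genes 0 passed and 4 had an unadjusted p under 0.05, 3 higher and 1 lower, and Snrnp35, a U11/U12 protein, had 5.12 ± 1.89 and 2.09 ± 0.965 RPKM (−1.01, adjusted p = 0.331).

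Crip2 and Nutf2 were past the threshold and in none of the lists. Crip2 encodes a LIM-domain protein and lies on chromosome 12 from 113140236 to 113145506 on the plus strand. Controls had 5.02, 13.9, 7.60, 13.0 and 5.80 RPKM and SMA mice 28.5, 72.3, 32.1, 42.0 and 96.5. The lowest SMA value was above the highest control. Crip2 rose by 2.401 on the log2 scale (SE 0.338, adjusted p = 0.000327), the ratio of means was 6.00, and the call held under every setting tried.

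Nutf2 encodes nuclear transport factor 2, which carries Ran into the nucleus, and lies on chromosome 8 from 105860580 to 105879330 on the plus strand. Controls had 33.01, 34.8, 44.3, 40.6 and 41.4 RPKM and SMA mice 24.2, 20.2, 13.5, 20.9 and 10.8. All SMA mice were below all controls. Nutf2 fell by 1.12 on the log2 scale (SE 0.199, adjusted p = 0.0104), with a ratio of means of 2.16. The call was lost without SMA mouse 77 (adjusted p = 0.0651) or control mouse 34 (0.0535), and with only the day-5 groups fitted (0.198).

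Of the genes whose groups did not overlap, 72 higher in SMA and 53 lower had a mean of at least 10 RPKM in the higher group. Among the 10 with the largest positive log2 fold changes, those that did not pass the test were Snord13, Gfap, Gm23849, Gm15892, Cox6b2 and 2900008C10Rik. Snord13, a small nucleolar RNA, had 0, 6.94, 5.17, 2.30 and 0 RPKM in controls and 28.7, 18.3, 20.3, 20.2 and 48.5 in SMA mice (log2 fold change 3.26, SE 0.741, adjusted p = 0.102, and 0.0328 with sex as a covariate). Cox6b2, a form of a cytochrome c oxidase subunit known from testis, had 6.34 to 31.1 RPKM in controls and 35.5 to 122.3 in SMA mice (1.501, adjusted p = 0.319).

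At the other end, the 10 largest falls of that kind held Smn1, Nutf2 and 8 genes that did not pass the test, which were 9330158H04Rik, Ogfod3, Ddx26b, Lrrtm1, Hapln1, Chst1, Znhit3 and Snrpe. Their log2 fold changes ran from −1.58 (9330158H04Rik) to −0.78 (Snrpe), and their adjusted p values from 0.187 to 0.372. Hapln1, which links hyaluronan to proteoglycans around neurons, had 29.7 to 51.9 RPKM in controls and 14.7 to 29.3 in SMA mice (−0.92, adjusted p = 0.217). Lrrtm1, a synaptic adhesion protein, had 17.4 to 28.5 and 4.595 to 15.7 RPKM (−0.98, adjusted p = 0.187). 9330158H04Rik, whose exons overlap Chrm2, had 51.5 to 81.1 and 13.3 to 32.9 RPKM (adjusted p = 0.262, and 0.0422 with only the day-5 groups fitted).

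Genes that define motor neurons did not pass the test in either direction. Of 14 motor neuron identity genes 7 were positive, 3 had an unadjusted p under 0.05 (1 higher, 2 lower), and the median was 0.04. Among all genes tested 53.2% were positive and 8.14% had an unadjusted p under 0.05. Calcb, a calcitonin gene-related peptide of motor neurons, had 1224 to 1572 RPKM in controls and 736.3 to 1460 in SMA mice (−0.49, adjusted p = 0.478), and SMA mouse 31, at 1460, lay within the control range. Isl2, a motor neuron transcription factor, had 22.9 ± 7.85 and 15.7 ± 2.56 RPKM (−0.48, adjusted p = 0.561). In these pools, fewer cells of a type and less RNA per cell cannot be told apart. Of 11 lumbar Hox genes 0 passed the test (0 at an unadjusted p under 0.05), and Hoxa10 had 34.2 ± 6.14 and 25.2 ± 2.81 RPKM (−0.41, adjusted p = 0.649).

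Chodl, which encodes chondrolectin, a marker of fast motor neurons known to be altered in SMA mice, came close to the threshold. It lies on chromosome 16 from 78930948 to 78951733 on the plus strand. Controls had 602.8, 741.4, 575.1, 651.8 and 780.5 RPKM and SMA mice 406.7, 499.0, 491.3, 359.7 and 384.1. All SMA mice were below all controls. The log2 difference was −0.65 (SE 0.135, adjusted p = 0.0722), and it passed the threshold without SMA mouse 46 (adjusted p = 0.0430) or SMA mouse 61 (0.0382). Of the 14 genes of fast, slow and gamma motor neurons 0 passed the test. An unadjusted p under 0.05 was found for 4, 1 higher and 3 lower, and for 8.14% of all genes tested. Rbfox3, which encodes the neuronal protein NeuN, had 68.0 ± 8.53 and 54.5 ± 10.4 RPKM (−0.33, adjusted p = 0.530).

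Nefl, the light neurofilament chain, had 4951 to 5909 RPKM in controls and 4473 to 4914 in SMA mice. The groups did not overlap, although the log2 difference was only −0.21 (SE 0.068, adjusted p = 0.348). Nefm, the medium chain, had 5237 ± 354.8 and 4605 ± 481.0 RPKM (−0.19, adjusted p = 0.444). Of 17 neurofilament and cytoskeleton genes 0 passed the test, 10 were positive and 3 had an unadjusted p under 0.05, all lower. Of 23 synaptic vesicle genes 0 passed the test, 1 had an unadjusted p under 0.05 (Syt1, the calcium sensor of vesicle release, 19.1 ± 5.73 against 28.7 ± 10.5 RPKM) and 13 were positive. Ion channel genes (22 tested), synaptic receptor genes (18), neuromuscular junction and growth factor genes (15) and SMA modifier genes (12) held no gene past the test, with 4, 0, 2 and 0 at an unadjusted p under 0.05. That p was reached by 8.14% of all genes tested.

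Genes of energy metabolism and translation held no call. Of 83 genes of oxidative phosphorylation 0 passed the test, 6 had an unadjusted p under 0.05 (2 higher, 4 lower), 23 (27.7%) were positive and the median was −0.07. For all genes tested the shares were 8.14% at that p (4.89% higher, 3.25% lower) and 53.2% positive, with a median of 0.03. Ndufb10, a complex I subunit, had 1353 ± 101.96 RPKM in controls and 1013 ± 127.8 in SMA mice, groups that did not overlap (−0.42, adjusted p = 0.330). Cytosolic ribosomal protein genes held 0 calls of 79 (5 at an unadjusted p under 0.05, all lower, with a median of −0.06) and mitochondrial ribosomal protein genes 0 of 75 (2, both lower, with a median of −0.04). Rps15a, of the small ribosomal subunit, had 9.90 to 54.4 RPKM in controls and 8.71 to 12.2 in SMA mice (−1.12, adjusted p = 0.355). Among 16 genes of the unfolded protein and related stress responses 0 passed and 1 had an unadjusted p under 0.05, Herpud1, with 17.3 ± 4.32 and 25.0 ± 6.24 RPKM (0.51, adjusted p = 0.558). Of 16 axon injury genes 0 passed, and none had an unadjusted p under 0.05. Of 10 immediate early genes 0 passed and 2 had an unadjusted p under 0.05, Junb (1.25 ± 0.708 and 3.72 ± 2.68 RPKM) and Fos (8.996 ± 3.65 and 16.7 ± 7.11). Among 20 cholesterol synthesis genes 0 passed, and Ebp, a sterol isomerase, had 8.87 to 19.4 RPKM in controls and 24.05 to 44.8 in SMA mice (1.01, adjusted p = 0.309).

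Markers of other cells were compared in the same libraries, since laser cutting can carry neighbouring cells along. Of 10 astrocyte markers 0 passed the test, 9 were positive, and their summed level was 2257 to 2601 RPKM in controls and 2422 to 2811 in SMA mice, carried mostly by Aldoc and S100b. Gfap, the filament protein of astrocytes, had 3.01, 0.749, 3.05, 1.44 and 0.278 RPKM in controls and 9.85, 5.13, 3.14, 69.9 and 11.2 in SMA mice. The groups did not overlap, SMA mouse 76 stood far above the others, and the log2 fold change was 2.28 (SE 0.522, adjusted p = 0.102). Without SMA mouse 76 it was 1.63 (adjusted p = 0.195), and without SMA mouse 61 it passed the threshold (adjusted p = 0.0331). Sox10, of the oligodendrocyte lineage, had 0.451 to 3.04 RPKM in controls and 2.09 to 9.49 in SMA mice (1.62, adjusted p = 0.124, and 0.0382 without SMA mouse 61). Of the 6 oligodendrocyte precursor markers, Sox10 among them, 3 were positive (median 0.02), and of 10 oligodendrocyte markers 6 were (median 0.16). Of all genes tested 53.2% were positive, and 0.769% had groups that did not overlap with SMA higher.

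For the other cell types the marker sums overlapped between genotypes, and none of their genes passed the test. In controls and SMA mice they were 55.7 to 219.7 and 67.5 to 158.8 RPKM for 10 oligodendrocyte genes, 18.7 to 28.9 and 18.3 to 55.2 for 6 precursor genes, and 15.7 to 50.7 and 11.6 to 109.6 for 12 microglial genes. For 10 vessel genes they were 11.3 to 21.5 and 13.9 to 50.3, for 5 blood genes 25.8 to 167.3 and 10.5 to 42.3, and for 8 inhibitory neuron genes 5.83 to 17.8 and 10.5 to 25.6. For Schwann cell genes the sums were 42.0 to 131.2 and 74.3 to 105.9, and for 7 excitatory neuron genes 18.0 to 97.8 and 23.7 to 73.6, with 2 genes tested in each list and all of these positive (medians 0.65 and 0.90). Slc32a1, the vesicular transporter of inhibitory neurons, had 0.171 to 0.858 RPKM in controls and 1.004 to 4.11 in SMA mice, groups that did not overlap (1.14, adjusted p = 0.543). Of the 8 inhibitory neuron genes, Slc32a1 among them, 5 were positive (median 0.29), and of 11 microglial genes tested 6 were (median 0.07). The 8 vessel genes tested were all positive (median 0.40) and the 4 blood genes tested all negative (median −1.14), against 53.2% positive of all genes. The vessel sum was highest in SMA mouse 31 (50.3 RPKM), and SMA mice 61 and 76 (20.8 and 13.9) lay within the control range. Control mice 34 and 75 had the highest blood sums (148.3 and 167.3 RPKM). Opalin of the oligodendrocyte list was at 0 in all 10 mice, and the microglial genes Trem2 and Tmem119 were at 0 in 3 or more mice of each group. The part of these cells in the results above was not tested.

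The same genes were then read at the other 2 ages in other mice, 4 controls and 7 SMA mice at day 2 and 4 controls and 5 SMA mice at day 10. At day 2, 2 genes passed the threshold (0.0122%), and at day 10 0.775% of genes did, 0.708% higher and 0.0671% (11 genes) lower. A change of the genotype difference with age was tested for each gene. For day 10 minus day 5, 0 genes passed and 1151 (7.03%) had an unadjusted p under 0.05, and for day 5 minus day 2, 0 passed and 1058 (6.46%) did. Leaving out 1 day-5 mouse gave at most 1 gene in either test, without SMA mouse 61 or control mouse 29 for the first and without SMA mouse 76 for the second.

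Cdkn1a had means of 19.6 and 73.5 RPKM in controls and SMA mice at day 2, 8.85 and 108.1 at day 5, and 6.90 and 199.8 at day 10, with log2 fold changes of 1.69, 3.45 and 4.85. The step from day 2 to day 5 was 1.76 (SE 0.537, unadjusted p = 0.00277, adjusted p = 0.705). Snrpa1 was past the threshold at each age, with log2 fold changes of 1.53, 1.39 and 1.57. Crip2 had 10.8 and 17.1 RPKM at day 2, 9.05 and 54.3 at day 5 and 58.0 and 232.1 at day 10, so that the control mean at day 10 was at the level of the SMA mean at day 5. Its fold change at day 5 exceeded that at day 2 by 1.71 (SE 0.475, adjusted p = 0.705). Tap1 had log2 fold changes of 0.37, 2.24 and 2.25, and Ccng1 of 0.66, 0.97 and 1.74.

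Of the 8 genes 7 also passed the threshold at day 10, and Nutf2 did not. It had means of 29.4 and 23.4 RPKM at day 2, 38.8 and 17.9 at day 5, and 25.8 and 19.1 at day 10 (log2 fold changes −0.33, −1.12 and −0.41, day-10 adjusted p = 0.527). The difference between day 10 and day 5 was 0.71 (SE 0.290, adjusted p = 0.640). Chodl had a control mean of 489.8 RPKM at day 2, 670.3 at day 5 and 492.8 at day 10, and SMA means of 475.4, 428.2 and 321.9. Its log2 difference was −0.05, −0.65 and −0.64, and it passed the threshold at day 10 (adjusted p = 0.0226).

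**Figure D4:**
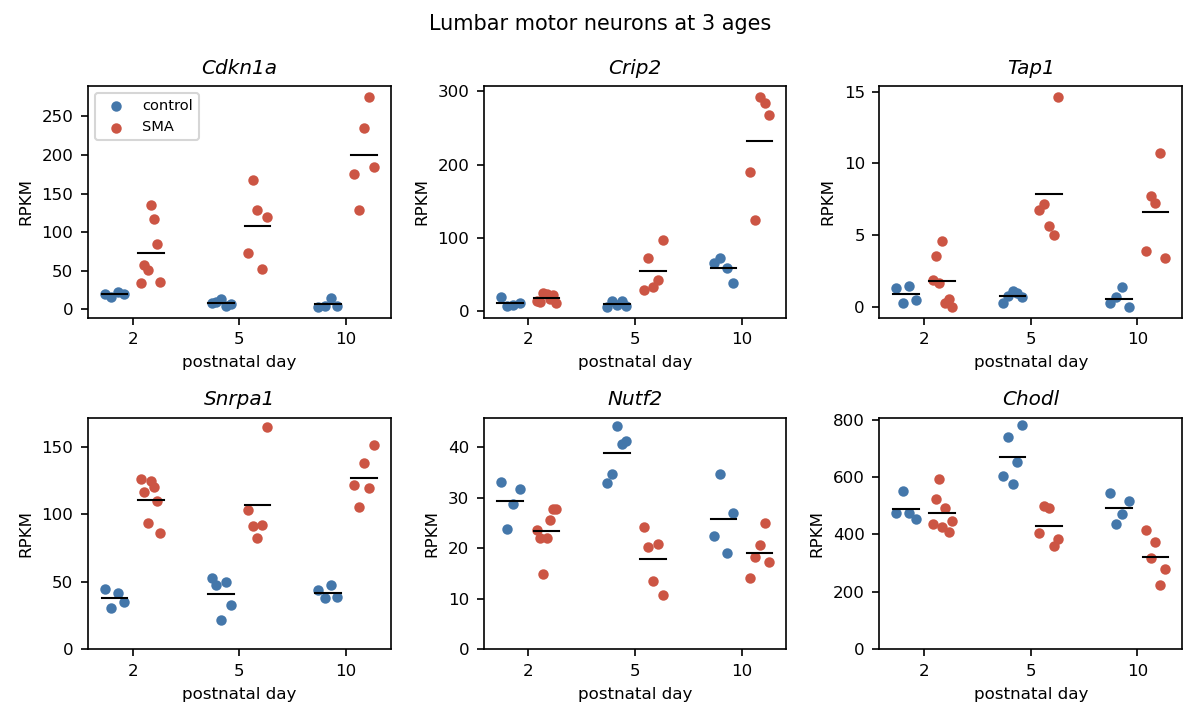
RPKM of 6 genes in lumbar neurons of single mice (points) with group means (lines), by postnatal day, in control (blue) and SMA mice (red). Snrpa1 separates the genotypes at all 3 ages, Cdkn1a and Crip2 means in SMA mice are highest at day 10, and Nutf2 is farthest apart at day 5.

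Genes past the threshold at day 10 were mostly on the same side at day 5, with smaller values. Of the genes higher at day 10, 99 (85.3%) were positive at day 5, against 53.2% of all genes tested. An unadjusted p under 0.05 in that direction was found for 47 (40.5%, against 4.89% of all genes), groups that did not overlap for 18 (15.5%, against 0.769%), and 6 were past the threshold. Their median log2 fold change was 0.44 at day 5 and 1.68 at day 10, the latter being the value that chose them. At day 2, 89 (76.7%) of them were positive, with a median of 0.17. Of the 10 lower at day 10 besides Smn1, 9 were negative at day 5 with a median of −0.16, and 0 passed the threshold. Across all 16382 genes the log2 fold changes of days 5 and 10 had r = 0.17, and those of days 5 and 2 r = 0.03. These are correlations across genes, which are not independent replicates, and no sample was shared between ages. The ages did share 1 estimate of spread per gene in the fit. Genes chosen by p at day 10 therefore tend to have a small SE at day 5 too. For that reason the share of 40.5% at an unadjusted p is not independent of the choice.

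**Figure D5:**
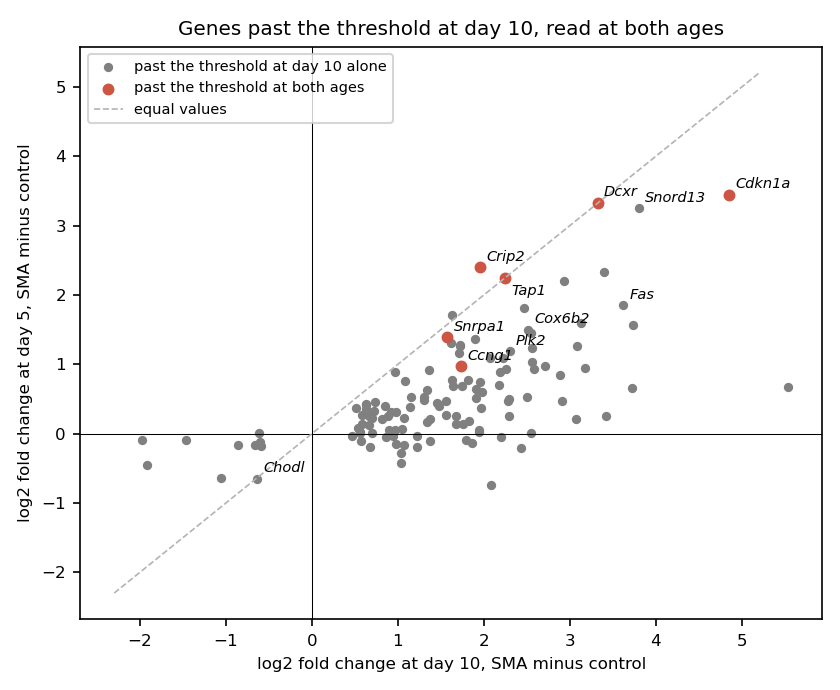
Each point is a gene past the threshold at day 10 other than Smn1, with its log2 fold change at day 10 on the x axis and at day 5 on the y axis. Most points lie above 0 and below the dashed line of equal values; the 6 red genes were past the threshold at both ages.

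Ocular and facial motor neurons of day-5 mice gave the last comparison. Ocular neurons are relatively spared in SMA. The genotype difference in lumbar neurons minus that in ocular neurons was past the threshold for 0 of 15062 genes (930, or 6.17%, at an unadjusted p under 0.05), and minus that in facial neurons for 0 of 15954 (798, or 5%). The ocular groups held 4 controls and 5 SMA mice, and the facial groups 4 and 3. Cdkn1a was higher in each SMA mouse than in each control in all 3 populations. It had 11.2 to 34.4 RPKM in ocular controls and 57.7 to 272.8 in ocular SMA mice, and 6.34 to 13.5 and 82.2 to 498.3 in facial neurons. Snrpa1 was likewise separated in both, with 33.7 to 44.2 and 72.2 to 119.5 RPKM in ocular and 25.3 to 42.2 and 95.1 to 115.2 in facial neurons. Its lumbar difference departed from the ocular one by −0.02 (SE 0.331) and from the facial one by −0.35 (SE 0.373).

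Crip2, Chodl and Sox10 were among the genes described whose lumbar difference departed from the ocular one, short of the threshold. Sox10, of the oligodendrocyte lineage, had opposite signs. Its log2 difference was 1.62 in lumbar, −0.73 in ocular and −0.92 in facial neurons, none of them past the threshold. Crip2 had 12.7 to 30.2 RPKM in ocular controls and 5.94 to 26.8 in ocular SMA mice, which overlap. The lumbar difference exceeded the ocular one by 2.55 (SE 0.576, unadjusted p = 0.000255, adjusted p = 0.349) and the facial one by 1.87 (SE 0.502, adjusted p = 0.887). Chodl had 125.9 to 173.9 RPKM in ocular controls and 159.2 to 234.2 in ocular SMA mice. Its lumbar difference was below the ocular one by −0.94 (SE 0.195, unadjusted p = 9.54e-05, adjusted p = 0.347) and the facial one by −0.40 (SE 0.265, adjusted p = 0.979). The corresponding values for Nutf2 were −1.09 (SE 0.437, adjusted p = 0.779) and −0.49 (SE 0.399, adjusted p = 0.983).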

How the data were processed

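The authors deposited a single RPKM table (reads scaled to gene length and to library size) of 39410 rows by 168 libraries. Per the submitters' processing notes, STAR 2.4.1c and the builds mm10 and hg19 were used, and the read counter and annotation are not given in the sources used here. Depth was recovered from the equal steps of low RPKM values. RPKM were tested as log2(RPKM + 1), with libraries of 1 mouse averaged, in limma 3.58.1 (R 4.3.3) with lmFit, eBayes with a trend, two-sided tests and Benjamini-Hochberg adjustment at 0.05. A gene entered when RPKM was at least 1 in 4 mouse samples. Fold changes understate changes of low genes. The fitting script was tested on simulated data. The labels give 1 mouse per library. Positions come from GENCODE M21, which matched 35283 rows (89.5%).

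The rule for naming took Smn1, SMN2 and the genes past the threshold. It added the 10 largest rises and 10 largest falls among genes whose groups did not overlap and whose higher mean was at least 10 RPKM. It further took the 2 genes with the smallest p in each list, and the 5 day-10 genes with the smallest p at day 5. Some genes that met this rule, and some lists, are not described above. Plk2, Bax, Mdm2, Chat, Gtse1, Psmb9, Tap2, B2m, Mccc2, Slc30a5 and the single markers of other cells beyond this rule were chosen after values were seen. The comparison, lists and rule were chosen with earlier results of these data known. Lumbar, ocular and facial samples of 1 mouse number come from the same animal. Deviations of the same mouse correlated from −0.0104 to 0.0635 between lumbar and ocular and from −0.0114 to 0.0236 between lumbar and facial samples. Alternatives covered the pseudocount, filter, groups fitted, quantile normalization, weights, sex, the mouse as a block and each mouse left out.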

Additional observations from a re-analysis of the deposited data

Results flagged for a closer look

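Of the groups of 5 values examined, 12 (9.84%) held a mouse far from the other 4 by Dixon's test, where chance flags about 1 in 20 groups. Among genes past the threshold, Smn1 was 43.8 RPKM in control mouse 29, and SMA mouse 77 had the highest values of Snrpa1 (164.6) and Tap1 (14.7). SMA mouse 76 stood apart in Gfap (69.9) and Nefm (5456), SMA mouse 46 in Ppih (8.18) and Hbb-bt (4.51), and SMA mouse 31 in 2900008C10Rik (28.2). Among controls, mouse 30 stood apart in Fas (4.86), mouse 75 in Calcb (1572) and Cntfr (10.5), and mouse 71 in Sox10 (3.04). Each value is in RPKM and the highest of its group. No mouse held more than 2 of the 12.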

How the results depend on the processing

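The count of 8 genes was 10 with a pseudocount of 0.1 or with sex as a covariate, 8 with a pseudocount of 5, no filter, quantile normalization, array weights, robust eBayes or each library as its own sample, 7 with a mean of at least 5 RPKM and 6 with only the day-5 groups fitted. Leaving out each of the 10 mice gave 6 to 18, and 0 to 1 genes for day 10 minus day 5 and for day 5 minus day 2. Leaving out SMA mice 31 and 77 together, chosen after seeing the data, gave 11. Cdkn1a, Dcxr, Smn1 and Crip2 passed under all of these. Lrdd, Fas, Plk2, Gfap, Sox10, Snord13, 9330158H04Rik and Chodl passed only in the settings given for them above. No named gene changed direction. With the mouse as a replicate block, 0 genes passed for lumbar minus ocular and 0 for lumbar minus facial, as without it. Quantile normalization moved the median of all genes from 0.0259 to −0.00972. Depth of 4.08 to 11.1 M reads limits genes near 1 RPKM, such as Tap1 in controls.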

Other observations

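Smn1 had 17 tested neighbours within 1 Mb on chromosome 13. Of these 0 passed the threshold at day 5 (0.0488% of all genes) and 12 had a positive log2 fold change (53.2% of all genes). Mccc2, a subunit gene of an enzyme of leucine breakdown, lies on the minus strand from 99948530 to 100015639. It had 15.6, 12.9, 12.5, 16.4 and 12.4 RPKM in control mice and 11.4, 6.81, 7.33, 11.9 and 6.62 in SMA mice. The groups did not overlap, with a log2 difference of −0.64 (unadjusted p = 0.0109, limma adjusted p = 0.437), and at day 10 Mccc2 was past the threshold (−1.05, adjusted p = 0.0327). In ocular and facial neurons at day 5 the log2 difference of Mccc2 was −0.73 and −0.90 (limma adjusted p = 0.380 and 0.527). Slc30a5, a zinc transporter gene in the same window, did not overlap either, with 9.97 ± 1.20 RPKM in controls and 12.8 ± 1.90 in SMA mice (SD, n = 5 each; 0.33, limma adjusted p = 0.627). Over all genes tested the groups did not overlap in 0.769% with SMA higher and in 0.47% with SMA lower.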
